A study of Mus musculus with 12 samples.

Results

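The mouse genome carries a pair of genes for 7SL RNA, Rn7s1 and Rn7s2, close to each other on chromosome 12, and the coverage of RNA polymerase III (Pol III), RNA polymerase II (Pol II) and 2 histone-titled antibodies along them is described here in mouse liver. They were chosen as the 2 stretches of chromosome 12 that were longer than 550 bp and overlapped these genes, 2 of the 532 stretches of genome that every deposited file lists. Chromosome 12 held 8 of these stretches, and the longest of its 6 others was 492 bp. Across the genome 45 stretches were longer than 550 bp, and all 532 ran from 370 to 1170 bp with a median of 373 bp.

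Chromatin immunoprecipitation with sequencing (ChIP-seq) recovers the DNA bound by a protein, or carrying a histone mark, and counts reads along the genome. All 12 libraries were made from liver. The mice were C57/BL6 males, 12 to 14 weeks old, kept in 12 h light and 12 h dark and fed only between Zeitgeber times 12 and 24 h for 7 days, where Zeitgeber time counts hours from lights on. The labels name no genotype or drug. Per the labels, 5 mice were taken at 2 h and 5 at 26 h as the biological replicate, but which replicate number stands for which time, and whether mice were pooled, is not stated. The 6 groups had 2 libraries each: RPC1 and RPC4, subunits of Pol III; RPB2, a subunit of Pol II; input, chromatin that was not precipitated; and 2 histone groups. The libraries titled H3K4 carry an antibody field naming H3K36me3 and those titled H3K36 one naming H3K4me3, so the names H3K4-titled and H3K36-titled are used. Because whole liver was used, each value is an average over all its cell types.

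7SL RNA is the RNA scaffold of the signal recognition particle, which binds the signal sequence of a nascent secreted or membrane protein and brings its ribosome to the endoplasmic reticulum. The liver makes most plasma proteins and so sends much of its translation through this route. Pol III transcribes 7SL genes from a promoter that joins elements inside the gene to elements just upstream, among which a site for factors of the ATF/CREB family has been described in the human gene, and it stops at a run of T. H3K4me3 is known to mark the starts of active genes and H3K36me3 the bodies of genes transcribed by Pol II.

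Rn7s1 lay at chr12:70260282-70260578 on the plus strand of the mm9 build (NCBIM37). Its identifier in the GENCODE vM1 annotation was AC099934.1 (ENSMUSG00000092665.1), and it was 297 bp long. The listed stretch ran from 70260148 to 70260701, 554 bp, with 134 bp before the gene and 123 bp after it. Rps29, which encodes a protein of the small ribosomal subunit, lay on the minus strand at 70258709 to 70260173 and so ran away from Rn7s1. Its start was 109 bp from the 7SL start, inside the stretch. Rn7s2 lay at chr12:70462172-70462468 on the minus strand (AC157822.1, ENSMUSG00000092773.1), also 297 bp long. Its stretch ran from 70462017 to 70462628, 612 bp, with 160 bp before the gene and 155 bp after it, and held no other annotated gene. Its neighbour Nemf, which encodes a factor of ribosome quality control, lay on the same strand at 70412531 to 70458153, 4019 bp away. Neither 7SL gene overlapped another gene's annotation. The symbols came from the same neighbours in the RefSeq table of GRCm38.p6, where both genes are 299 bp long.

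Positions below count from +1 at the first annotated base of each gene in its own direction, and the base before it is -1. The upstream sequences are shown because the copies differed in Pol III coverage there. Each runs from -100 to -1, and the 8 capitals mark bases -52 to -45.
Rn7s1 upstream, plus strand, 70260182 to 70260281: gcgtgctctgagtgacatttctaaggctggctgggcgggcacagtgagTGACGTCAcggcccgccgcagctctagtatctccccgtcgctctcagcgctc
Rn7s2 upstream, minus strand, 70462469 to 70462568: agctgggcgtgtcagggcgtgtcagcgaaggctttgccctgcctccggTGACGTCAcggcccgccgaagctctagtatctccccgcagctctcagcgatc
The capitals read the same on both strands and hold TGACGT, the core of the cAMP response element, on each. TGACGT on either strand occurred in the outer 150 bp of 23 of the 532 stretches (4.32%), both 7SL stretches among them. Of 32851 RefSeq promoters (GRCm38.p6), 1343 (4.09%) held it between -100 and -1, and 379 (1.15%) held the 8-letter palindrome. Neither 7SL gene is in that promoter table. TATAAA, found on either strand in the same end windows of 111 stretches (20.9%), was in neither 7SL stretch.

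The transcribed part, +1 to +297, was identical in both genes. From +74 to +227 every 76-base window over a base occurs in more than 1 place of the genome.
GGTTCGA, a core of the B box of tRNA genes, was searched on both strands in the central 370 bp and found in 234 of the 532 stretches (44.0%), but in neither 7SL stretch. GAGTTC, searched in the same way, was found in 146 stretches (27.4%), and in both 7SL genes at +74 to +79. No clear match to the A box or B box consensus was found on the gene strand. The best windows had 2 and 3 mismatches, with 3 and 4 windows equally good. This search does not show that the genes lack internal promoter elements.

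The gene ends are shown because Pol III coverage beyond them also differed between the copies. The sequences start just after the annotated gene and run from +298 to +337, with the first T run of at least 4 in capitals.
Rn7s1 end, plus strand, 70260579 to 70260618: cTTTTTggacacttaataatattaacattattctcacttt
Rn7s2 end, minus strand, 70462132 to 70462171: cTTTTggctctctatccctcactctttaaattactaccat
The first T run was 5 bases long at Rn7s1 (+299 to +303) and 4 at Rn7s2 (+299 to +302). Further runs of 4 or more began at +339, +353 and +382 at Rn7s1, and at +348 and +384 at Rn7s2.

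Outside the transcribed sequence the copies shared little. Aligned without gaps, 50 of the 60 bases from -60 to -1 were identical (83.3%), against 8 of 40 from -100 to -61 (20%) and 9 of 34 from -134 to -101 (26.5%). All 297 bases of the gene and the 5 bases from +298 to +302 were identical, and 34 of the 95 from +303 to +397 (35.8%). The 100 bases upstream were 64% G or C at Rn7s1 and 66% at Rn7s2, the gene 62.6%, and the 100 bases downstream 23% and 27%.

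The identical sequence bore directly on the measured values. Reads lying alone in the files were 76 bases long, so each 76-base window of both stretches was searched in the whole genome. At Rn7s1, 250 of 479 windows occurred in 1 place, 102 in 2 and 127 in 3. At Rn7s2 the numbers were 308, 102 and 127 of 537. Besides the other copy, the repeated windows matched chr6:69466374-69466546 (98 windows) and chr9:88448074-88448177 (29 windows). Only bases up to -3 and from +303 were covered by unique windows alone, 250 bases of Rn7s1 (45.1%) and 308 of Rn7s2 (50.3%).

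Coverage was fractional exactly in this repeated part. A base was called fractional where its coverage was more than 0.05 from a whole number. At Rn7s1 that held for 34.5% and 34.3% of bases in the RPC1 libraries, 44.2% and 44.9% in RPC4, 43.5% and 41.2% in RPB2, 35.7% and 38.8% in the H3K4-titled, 14.8% and 15.7% in the H3K36-titled and 29.6% and 37.9% in input. RPC4 and RPB2 had the largest shares, and the sparse H3K36-titled group the smallest. Each library had the same number of fractional bases at Rn7s2 as at Rn7s1, from 82 in H3K36-titled replicate 1 to 249 in RPC4 replicate 2, and the shares of the longer Rn7s2 stretch ran from 13.4% to 40.7%. None lay outside -2 to +302, and every fractional value was a multiple of 1/2, 1/3 or 1/6. In the 154 bases from +74 to +227 both copies had equal coverage at every base in all 12 libraries, with a largest difference of 0. The files therefore hold reads divided evenly among the places they match, and the middle of the gene cannot tell the copies apart.

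Averaged over libraries, 34.6% of Rn7s1 and 31.3% of Rn7s2 was fractional. Over the bases of the other 530 stretches the share was 17.1%, and the median stretch had 3.36%. Of these stretches 224 had no fractional base, while 93 had a higher share than Rn7s1 and 99 a higher share than Rn7s2. The 7SL pair thus stood above the median but was not at the top.

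Both genes carried Pol III in all 4 Pol III libraries, and Rn7s2 carried more than Rn7s1 in each. Mean coverage, in reads per base as deposited and over the whole stretch, was 89.8 and 82.6 at Rn7s1 in RPC1 replicates 1 and 2 and 112.6 and 96.1 in RPC4. At Rn7s2 it was 124.2 and 100.9 in RPC1 and 150.4 and 123.1 in RPC4. RPC4 replicate 1 was the highest library and RPC1 replicate 2 the lowest at both genes. Input had 1.67 and 0.553 at Rn7s1 and 1.01 and 0.815 at Rn7s2, so the Pol III and input libraries did not overlap. Group means were 95.3 ± 12.8 (SD, n = 4) at Rn7s1 and 124.7 ± 20.2 at Rn7s2 for Pol III, and 1.11 ± 0.791 (SD, n = 2) and 0.910 ± 0.135 for input.

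The depth behind these means set their precision. Dividing summed coverage by the read length gives read equivalents: 602 to 821 per Pol III library at Rn7s1 and 812 to 1211 at Rn7s2, but 4.03 and 12.2 in input at Rn7s1 and 6.56 and 8.09 at Rn7s2. The listed stretches together held 82276 to 160705 read equivalents in the Pol III files, 13849 and 14779 in RPB2, 17033 and 26665 in the H3K4-titled, 1273 and 1754 in the H3K36-titled and 3365 and 3563 in input. Reads outside the stretches are not in these sums, so the full depth is unknown and no counting interval is given. The shares and the tests below are relative to what lies in the stretches.

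As a share of all coverage in its file, Rn7s1 held 0.566% and 0.732% in RPC1, 0.540% and 0.436% in RPC4, and 0.342% and 0.120% in input. Rn7s2 held 0.865% and 0.987% in RPC1, 0.797% and 0.617% in RPC4, and 0.227% and 0.195% in input. All 4 Pol III libraries were above both input libraries at both genes. By mean coverage among 442 regions, into which stretches closer than 1000 bp were merged, Rn7s1 ranked between 49 and 103 in the Pol III libraries and Rn7s2 between 21 and 70.

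**Figure D1:**
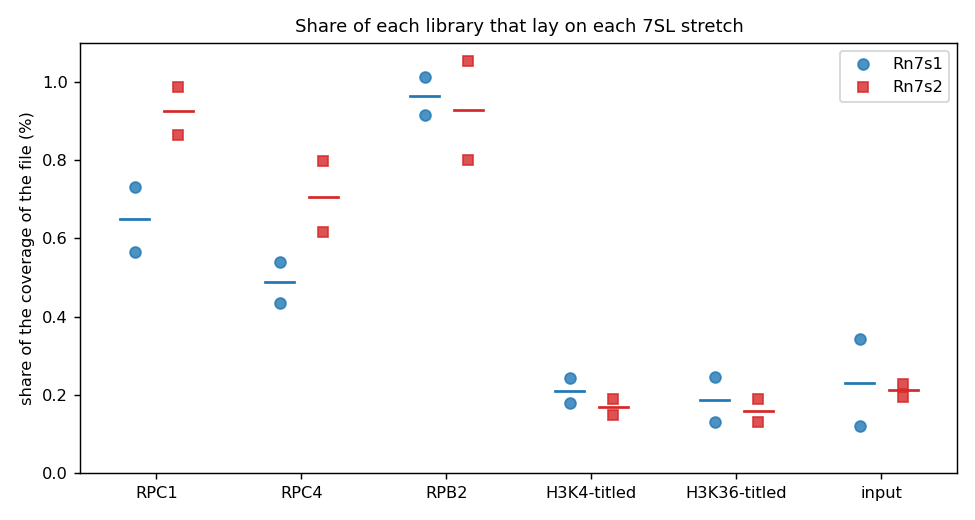
Share of the coverage of each file (%, vertical axis) that lay on the Rn7s1 stretch (circles) and the Rn7s2 stretch (squares) in the 2 libraries of each group, with a bar at the group mean. RPB2 libraries gave 0.801% to 1.05% at both genes, Pol III libraries 0.436% to 0.987%, and the histone-titled and input libraries 0.120% to 0.342%.

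Each group was compared with input by limma over 397 regions, with log2(coverage scaled by the file total + 0.0830) and Benjamini-Hochberg adjustment over all regions. Pol III was higher than input at Rn7s1 by 1.45 on this log2 scale (SE 0.44, limma adjusted p = 0.0163) and at Rn7s2 by 1.92 (SE 0.26, adjusted p = 0.000361). Of all regions tested 21.2% were called higher and 54.2% lower. The fold at Rn7s1 ranked 74 from the highest and that at Rn7s2 41, and the median over all regions was -1.19. The call at Rn7s1 was lost when input replicate 2, the lower of the input libraries there, was left out, with a difference of 0.70 (adjusted p = 0.160).

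File totals are themselves made mostly of Pol III targets in the Pol III files. A second scaling was therefore anchored on the lowest 25% of regions in coverage by Pol III. It moved the median of all regions for Pol III against input to 3.75, and 71.5% of regions were called higher and 0% lower. With it, Pol III was higher than input by 6.41 at Rn7s1 (SE 0.40, limma adjusted p = 7.06e-09) and by 6.91 at Rn7s2 (SE 0.31, adjusted p = 4.23e-10). Rn7s1 and Rn7s2 ranked 75 and 37 from the highest with the second scaling. A scaling divides each library by a single factor, so ranks could hardly change between the 2 scalings. The anchor regions were picked by low coverage in these Pol III libraries, so the size of this Pol III difference is not independent of the choice.

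No difference between the Pol III subunits passed the test. With file totals RPC1 was higher than RPC4 by 0.40 at Rn7s1 (SE 0.51) and by 0.40 at Rn7s2 (SE 0.30), and the limma adjusted p was 1 at both after rounding. No region was called in either direction (0%), 3 of 397 had an unadjusted p under 0.05, and with only the RPC1 and RPC4 libraries in the fit 29 regions were called. In that fit the adjusted p was 0.0905 at Rn7s1 and 0.0532 at Rn7s2. With the anchored scaling the differences were 0.13 and 0.12, and with coverage as deposited they were -0.27 and -0.28.

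Along the genes, the highest Pol III base lay near the start in every library. At Rn7s1 the highest base was at +47 and +52 in RPC1 and at +34 and +67 in RPC4, with 165.3, 172.3, 208.8 and 148.5 reads. At Rn7s2 it was at -5 and -8 in RPC1 and at -4 and +30 in RPC4, with 286, 232, 328 and 212.3 reads. All 4 summits of Rn7s2 thus lay upstream of all 4 of Rn7s1. The Rn7s1 summits, and that of RPC4 replicate 2 at Rn7s2, lay among bases covered in part by repeated windows, and the other 3 among unique ones. Coverage counts only the 76 bases that were read of fragments of about 250 bp, so a summit is not a position of the polymerase.

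**Figure D2:**
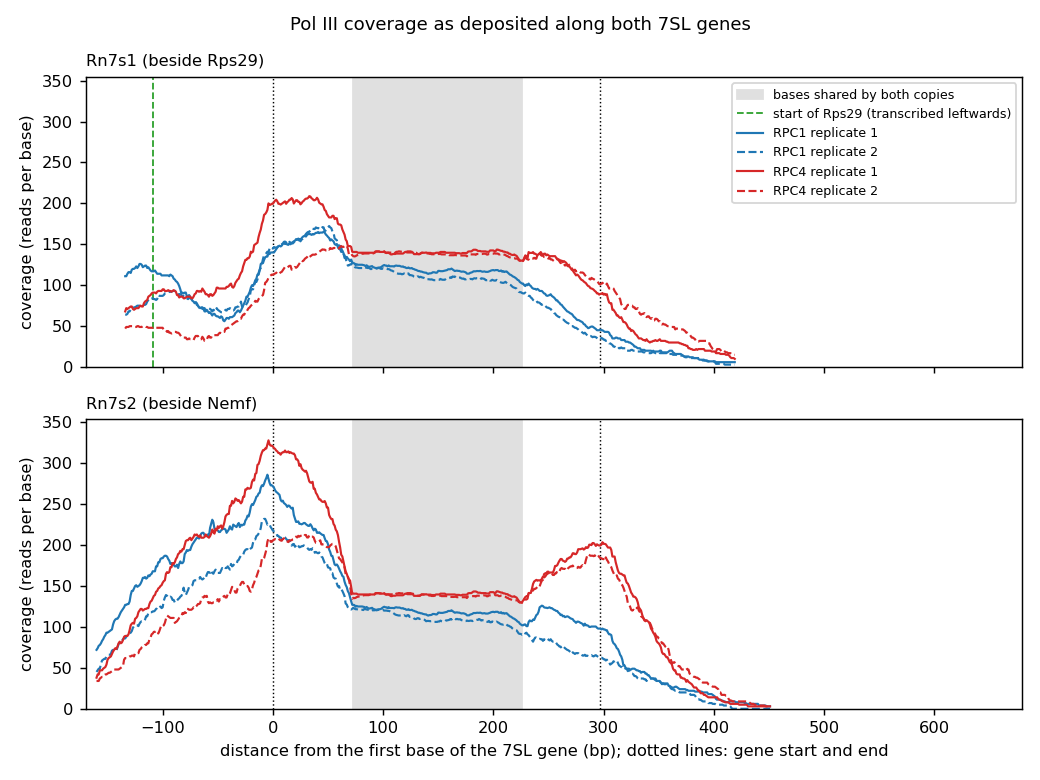
Pol III coverage as deposited (reads per base, vertical axis) against distance from the first base of the gene (bp) at Rn7s1 (top) and Rn7s2 (bottom), for RPC1 (blue) and RPC4 (red), replicate 1 solid and replicate 2 dashed. In the grey block the curves of both genes are the same, and outside it Rn7s2 reaches 212.3 to 328 reads at its start against 148.5 to 208.8 at Rn7s1.

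The first 99 bases of the gene had 144.5 and 145.9 reads per base in RPC1 and 178.0 and 134.8 in RPC4 at Rn7s1, and 189.2 and 166.3 in RPC1 and 229.6 and 182.6 in RPC4 at Rn7s2. The last 99 bases had 85.8 and 72.4 in RPC1 and 127.3 and 127.4 in RPC4 at Rn7s1. At Rn7s2 they had 111.5 and 83.3 in RPC1 and 164.6 and 157.2 in RPC4. The middle 99 bases, where the copies share their values, had 118.6 and 110.4 in RPC1 and 139.9 and 138.6 in RPC4. Every Pol III library was lower in the last 99 bases than in the first at both genes, but the fall was not steady: RPC4 replicate 2 was higher in the middle than in the first 99 bases at Rn7s1, and both RPC4 libraries were higher in the last 99 bases than in the middle at Rn7s2. The ratio of last to first was 0.594 and 0.496 in RPC1 and 0.715 and 0.945 in RPC4 at Rn7s1, and 0.589 and 0.501 in RPC1 and 0.717 and 0.861 in RPC4 at Rn7s2.

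RPC4 coverage thus reached further toward and past the gene end than RPC1 coverage. Of the coverage on the stretch, 4.48% ± 0.432 (SD, n = 2) in RPC1 and 9.67% ± 3.67 in RPC4 lay downstream of Rn7s1, and 5.98% ± 0.437 and 12.3% ± 1.93 downstream of Rn7s2. The RPC4 libraries were above the RPC1 libraries at both genes with no overlap. Upstream of the gene the order was the opposite, 25.3% ± 0.762 in RPC1 and 17.7% ± 6.41 in RPC4 at Rn7s1 and 37.9% ± 1.79 and 27.6% ± 5.75 at Rn7s2. These shares need no scaling between libraries. With 2 libraries a group they were not tested, and they were singled out after their values were seen.

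Upstream of the gene the copies differed in every Pol III library. In the 100 bp before the start, Rn7s1 had 88.1 and 87.0 reads per base in RPC1 and 111.5 and 53.6 in RPC4. Rn7s2 had 219.0 and 171.8 in RPC1 and 233.5 and 139.0 in RPC4. Every Rn7s2 value was above every Rn7s1 value. From -134 to -85, across the Rps29 start, Rn7s1 had 115.6 and 81.5 in RPC1 and 84.0 and 47.1 in RPC4. Rn7s2 had 163.6, 116.4, 137.2 and 87.8 in the same order over the same bases, more than Rn7s1 in each library.

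The bases between showed a different course at each gene. Over the 8 bases of the palindrome Rn7s1 had 61.0 and 68.5 reads per base in RPC1 and 95.8 and 40.8 in RPC4, less than from -134 to -85 in 3 of the 4 libraries, all but RPC4 replicate 1. From there coverage rose into the gene, to 148.2, 150.2, 201.8 and 118.3 over its first 20 bases. Rn7s2 had 218.1 and 168.4 in RPC1 and 221.5 and 133.8 in RPC4 over the palindrome, more than in its bases from -134 to -85 in all 4 libraries. Pol III coverage thus rose toward Rn7s2 from the edge of the stretch, while at Rn7s1 it had a low point between Rps29 and the 7SL gene in 3 of 4 libraries.

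The ratio of Rn7s2 to Rn7s1 within a library needs no scaling. For mean coverage over the stretch it was 1.38 and 1.22 in RPC1 and 1.34 and 1.28 in RPC4, a mean log2 ratio of 0.38 ± 0.08 (SD, n = 4). All 4 libraries had more at Rn7s2, and the exact sign-flip permutation test gave p = 0.13 (two-sided), the smallest it allows. It took the 4 libraries as independent, but per the labels mice were collected at 2 times only, so RPC1 and RPC4 may share mice. Over the bases with unique windows only, the ratios were 1.85, 1.61, 1.74 and 1.69, a mean log2 ratio of 0.78. Over the 100 bp upstream they were 2.49, 1.98, 2.09 and 2.59 (mean log2 1.18), and over the 100 bp downstream 1.94, 1.88, 2.39 and 1.59 (mean log2 0.95). The value over the whole stretch is smaller because it includes the shared bases, which are equal by the division of reads. Input, with few reads, had ratios of 0.601 and 1.47 over the stretch and 2.73 and 1.74 over the 100 bp upstream. In that upstream window the mean log2 ratio of Pol III was above that of input by 0.06 (exact permutation p = 0.8), so the excess of Rn7s2 there was not separated from input. Input had only 0.58 to 2.16 reads per base there. The difference from input was 1.16 over the unique bases and 0.93 over the outer 150 bp of the stretch. Each had an exact permutation p of 0.0667, the smallest possible, and 0.0889 after Benjamini-Hochberg adjustment. In a 150 bp window at the Pol III summit it was -0.38 (exact permutation p = 0.6).

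**Figure D3:**
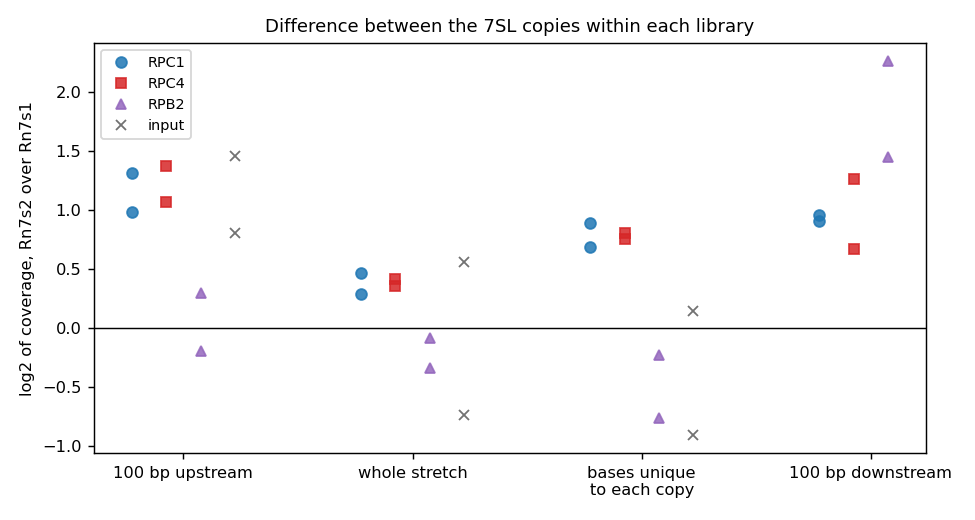
Log2 ratio of Rn7s2 to Rn7s1 coverage within each library (vertical axis) for 4 choices of bases, in RPC1, RPC4, RPB2 and input; libraries with no coverage at either gene have no point. The 4 Pol III libraries lie above 0 for each choice of bases, with a mean of 0.38 over the whole stretch and 1.18 over the 100 bp upstream.

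The other antibodies did not share this order of the copies in mean coverage over the stretch. The ratio of Rn7s2 to Rn7s1 was 0.792 and 0.943 in RPB2 and 0.710 and 0.752 in the H3K4-titled libraries. In the H3K36-titled libraries it was 0.695 and 0.905. All were below every Pol III ratio. Mean coverage divides by stretch length, 554 bp at Rn7s1 and 612 bp at Rn7s2. Summed coverage was equal at both genes in H3K36-titled replicate 2 (1.64 read equivalents). In RPB2 replicate 2 it was higher at Rn7s2, 146 read equivalents against 140 at Rn7s1. Length enters every library alike, so differences between groups do not change with it. The mean log2 ratio of Pol III was above that of RPB2 by 0.59, above the H3K4-titled by 0.84 and above the H3K36-titled by 0.72. In each of these comparisons the exact permutation test gave p = 0.0667 (two-sided), the smallest that 4 libraries against 2 allow, and 0.0889 after Benjamini-Hochberg adjustment over 4 comparisons. Against input the difference was 0.47 (exact permutation p = 0.333). These tests also took the 4 Pol III libraries as independent. The order against RPB2 held in the unique bases (1.28) and the 100 bp upstream (1.13), and turned in the 100 bp downstream (-0.90), where RPB2 had 0.480 to 6.19 reads per base. In a 150 bp window at the Pol III summit RPB2 was itself higher at Rn7s2, with ratios of 1.18 and 1.28, and the difference from Pol III was 0.28 (exact permutation p = 0.133).

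Pol II was present at both stretches. RPB2 coverage was 18.6 and 19.2 reads per base at Rn7s1 and 14.7 and 18.1 at Rn7s2, or 18.9 ± 0.476 (SD, n = 2) and 16.4 ± 2.42. These are 135 and 140 read equivalents at Rn7s1 and 118 and 146 at Rn7s2. All 4 values were far above the 0.553 to 1.67 of input. Over the bases with unique windows only, RPB2 had 25.1 and 21.97 reads per base at Rn7s1 and 14.8 and 18.7 at Rn7s2, a ratio of Rn7s2 to Rn7s1 of 0.590 and 0.851. Both Rn7s1 libraries were above both Rn7s2 libraries there. Rn7s1 took 0.915% and 1.01% of the RPB2 files and Rn7s2 0.801% and 1.05%, and by mean coverage they ranked 17 and 13 (Rn7s1) and 23 and 15 (Rn7s2) of 442 regions.

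By limma with file totals RPB2 was higher than input by 2.23 at Rn7s1 (SE 0.51, adjusted p = 0.0126) and by 2.11 at Rn7s2 (SE 0.30, adjusted p = 0.00279). Of all regions tested 6.55% were called higher and 33% lower, and the median over all was -1.25. With the anchored scaling the differences were 4.28 (SE 0.47, limma adjusted p = 1.27e-05) and 4.19 (SE 0.36, adjusted p = 1.82e-06), with 40.3% of regions called higher, 0.252% lower and a median of 0.95. The call at Rn7s1 was lost without RPB2 replicate 1 (2.30, limma adjusted p = 0.0600).

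At both genes Pol II coverage was highest at the outer upstream edge of the stretch, and its level there was higher at Rn7s1. At Rn7s1 the highest base was at the outer upstream edge, -133 with 138 reads in replicate 1 and -134 with 97 in replicate 2, beyond the Rps29 start at -109. The outermost 50 bp had 98.4 and 77.0 reads per base, and 60.04% and 51.3% of the coverage on the stretch lay upstream of the 7SL gene. At Rn7s2, with no annotated start within the stretch, the highest base was also at the outer upstream edge, at -160 and -157 with 50 reads in each replicate. Its outermost 50 bp had 34.5 and 44.0 reads per base, and 44.5% and 51.2% of coverage lay upstream. Both Rn7s1 values in the outermost bases were above both Rn7s2 values. Since the highest values stand at the edge of the listed bases, where Pol II coverage peaks is not shown by these files.

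**Figure D4:**
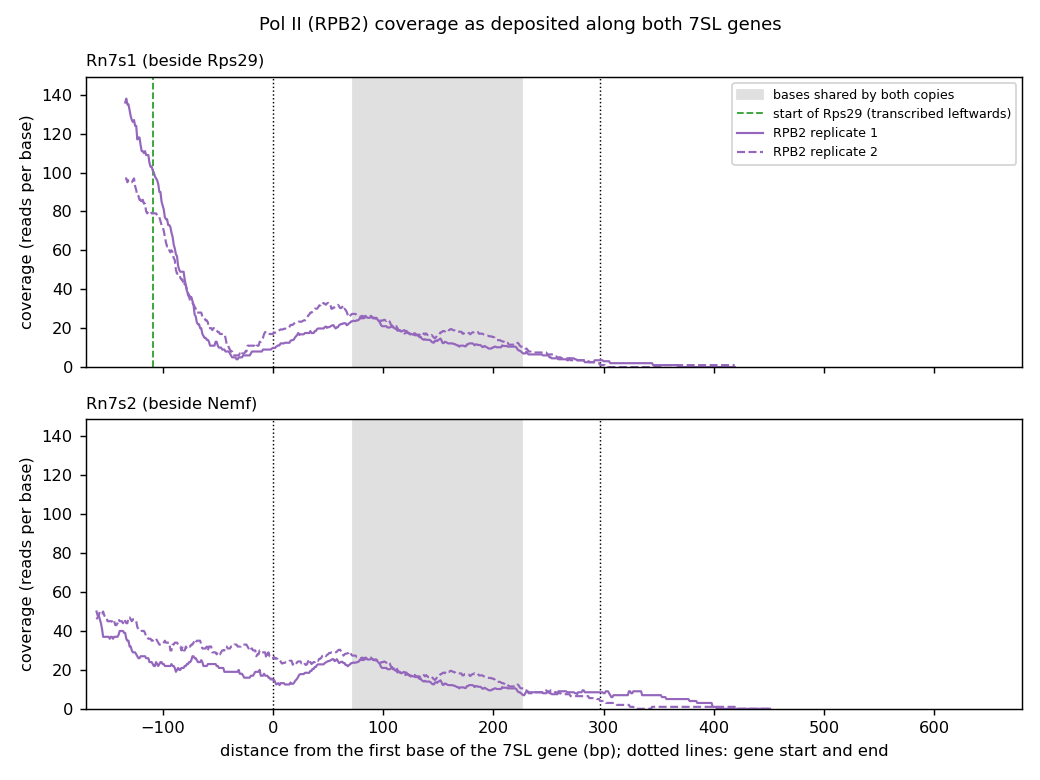
RPB2 coverage as deposited (reads per base, vertical axis) against distance from the first base of the gene (bp) at Rn7s1 (top, with the Rps29 start as a green line) and Rn7s2 (bottom), replicate 1 solid and replicate 2 dashed. At Rn7s1 coverage falls from 138 and 97 reads at the left edge to 4 and 6 reads before the gene, rises inside it and falls again toward the gene end, and at Rn7s2 it starts from 50 reads.

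Inside the genes RPB2 was lower at the end than at the start. The first 99 bases had 19.4 and 26.1 reads per base at Rn7s1 and 20.7 and 25.9 at Rn7s2, and the last 99 had 6.25 and 7.51 at Rn7s1 and 8.89 and 9.07 at Rn7s2. The ratio of last to first was 0.322 and 0.288 at Rn7s1 and 0.429 and 0.351 at Rn7s2, below each Pol III ratio at the same gene. In the 100 bp upstream RPB2 had 23.4 and 25.5 at Rn7s1 and 20.5 and 31.3 at Rn7s2, which overlapped. In the 100 bp downstream it had 1.30 and 0.480 at Rn7s1 and 6.19 and 1.31 at Rn7s2. The part of RPB2 coverage inside the genes that comes from Pol II on 7SL, from Pol II on the neighbour, or from the other places the shared reads match cannot be told apart.

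The H3K4-titled libraries covered both genes with fewer reads per base than the Pol III and RPB2 libraries. By their mean coverage among the 442 regions, Rn7s1 ranked 90 and 104 and Rn7s2 112 and 115. Coverage was 5.65 and 6.50 reads per base at Rn7s1 and 4.01 and 4.89 at Rn7s2, 6.07 ± 0.601 (SD, n = 2) and 4.45 ± 0.620, which did not overlap. These are 41.2 and 47.4 read equivalents at Rn7s1 and 32.3 and 39.4 at Rn7s2. Their shares of the file were 0.242% and 0.178% at Rn7s1, within the range of input, and 0.190% and 0.148% at Rn7s2, just below the 0.227% and 0.195% of input. Rn7s1 was above Rn7s2 in both libraries, the opposite of Pol III.

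With file totals the H3K4-titled difference from input was 0.03 at Rn7s1 (SE 0.51, limma adjusted p = 0.955) and -0.32 at Rn7s2 (SE 0.30, adjusted p = 0.367), with 11.1% of regions called higher, 61.2% lower and a median of -2.08. With the anchored scaling it was 5.53 at Rn7s1 (SE 0.47, limma adjusted p = 1.68e-07) and 5.19 at Rn7s2 (SE 0.36, adjusted p = 2.41e-08), with 65% called higher, 4.79% lower and a median of 3.25. The direction and the call thus depend on the scaling, while the place among regions did not move: they ranked 103 and 112 from the highest when file totals were used, and 103 and 110 when the anchored scaling was used. Both genes were above the median region with either scaling. The anchored scaling divided the H3K4-titled libraries by 0.150 and 0.259 and input by 1.78 and 2.15. The size of the anchored difference therefore follows the choice of anchor regions, as for Pol III.

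Along the genes the H3K4-titled coverage lay over the gene body and the outer edge and was low just upstream of the start. The 100 bp upstream had 0.950 and 2.47 reads per base at Rn7s1 and 1.43 and 3.39 at Rn7s2, while the middle 99 bases of the gene, shared by both copies, had 10.4 and 7.97. The outermost 50 bp had 5.84 and 6.14 at Rn7s1 and 4.78 and 8.18 at Rn7s2. In both libraries and at both genes the upstream 100 bp was the lowest of these 3 windows, and it is where Pol III coverage was high at Rn7s2. The last 99 bases had 8.16 and 12.5 at Rn7s1 and 5.00 and 7.86 at Rn7s2. In the 100 bp downstream Rn7s1 had 3.71 and 2.85 and Rn7s2 had 0 and 0.600, so the copies did not overlap there.

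The H3K36-titled libraries held too few reads to describe a profile. Coverage was 0.590 and 0.226 reads per base at Rn7s1 and 0.410 and 0.204 at Rn7s2, which is 4.30, 1.64, 3.30 and 1.64 read equivalents. No base of the 100 bp upstream was covered at either gene in either library. Against input with file totals the difference was -0.18 at Rn7s1 (SE 0.51, limma adjusted p = 0.773) and -0.42 at Rn7s2 (SE 0.30, adjusted p = 0.288), with 4.28% of regions called higher, 18.9% lower and a median of -1.04. With the anchored scaling the direction turned at Rn7s1, 0.14 (limma adjusted p = 0.889), and the value at Rn7s2 was -0.01 (adjusted p = 0.974), with 4.03% called higher and 8.82% lower. Neither scaling gave a call over the whole stretch. Some other settings did: with coverage as deposited the difference was -1.09 at Rn7s1 (limma adjusted p = 0.0376) and -1.23 at Rn7s2 (adjusted p = 0.0101), and from the outer 150 bp of the stretch it was -4.67 at Rn7s2 (adjusted p = 0.000685), or -1.81 with anchored scaling (adjusted p = 0.00575). In those outer bases of Rn7s2 the H3K36-titled libraries had 0.0233 and 0 reads per base and input 0.713 and 0.730. The size of that difference thus rests on a nearly empty window and on the pseudocount.

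**Figure D5:**
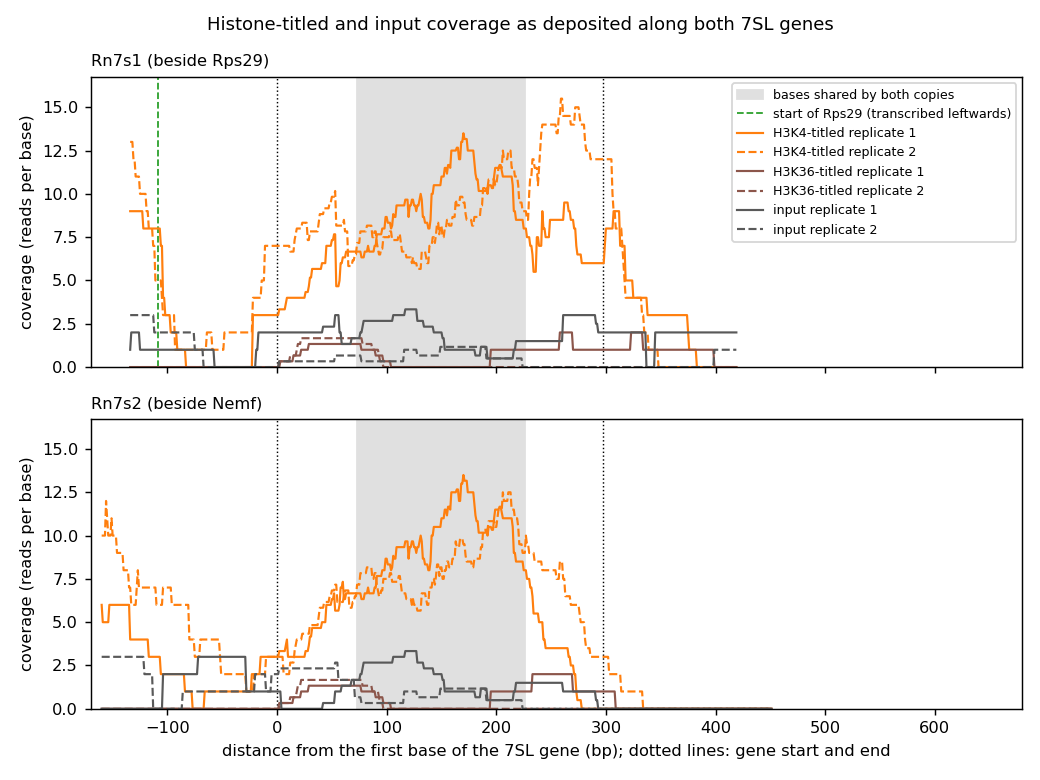
Coverage as deposited (reads per base, vertical axis) of the H3K4-titled (orange), H3K36-titled (brown) and input (grey) libraries against distance from the first base of the gene (bp) at Rn7s1 (top) and Rn7s2 (bottom), replicate 1 solid and replicate 2 dashed. The H3K4-titled curves reach 13.5 and 15.5 reads at Rn7s1, are low just before the gene start, and the other groups stay at or under 3.33 reads at both genes.

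Beside other Pol III genes that are neither tRNA nor 5S rRNA genes, the 7SL pair had more Pol II coverage than any of the 11 compared, and Pol III coverage within their range. Mean Pol III coverage over the stretch was 89.7 ± 21.1 (SD, n = 4) at Rn7sk, which encodes the 7SK RNA that holds back a Pol II elongation factor, and 92.6 ± 24.4 at Rmrp, the RNA of RNase MRP. It was 10.8 ± 3.46 at Rpph1, the RNA of RNase P, 136.2 ± 59.0 at Rnu6atac, 58.8 and 34.8 at a pair of Y RNA genes, and 7.52 to 61.4 at 5 U6 genes. The 95.3 and 124.7 of Rn7s1 and Rn7s2 lay within this range. RPB2 coverage was 0.815 to 12.8 at those 11 genes, highest at Rpph1, against 18.9 and 16.4 at the 7SL pair. The H3K4-titled level at the pair, 6.07 and 4.45, lay within the 0.207 to 21.3 of the others. No test was made, since the genes share their libraries.

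A larger share of Pol III coverage lay past the end at the 7SL genes than at the other RNA genes of similar length. Of Pol III coverage on the stretch, averaged over the 4 libraries scaled by file total, 6.57% lay downstream at Rn7s1 and 8.63% at Rn7s2, against 2.05% at Rn7sk, 2.10% at Rmrp and 3.31% at Rpph1. The stretch listed 123 and 155 bp downstream of the 7SL genes. Inside the gene lay 71.2% at Rn7s1, 57.8% at Rn7s2, 74.2% at Rn7sk, 77.4% at Rmrp and 77.8% at Rpph1. Rn7s2 was the lowest of these 5 and also had the largest upstream share, 33.6% against 22.2% at Rn7s1 and 18.9% to 23.7% at the other 3. Inside the 7SL genes reads were divided among the places they match, and in most of the flanks they were not. All these shares therefore depend on that division, and its effect was not tested. Fractional bases made up 34.6% of Rn7s1 and 31.3% of Rn7s2, against 21.2% at Rn7sk, 16.2% at Rmrp and 0% at Rpph1.

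Likeness to other regions was measured over all 12 libraries. The root mean square difference in log2(scaled coverage + 0.0830) between Rn7s1 and Rn7s2 was 0.430. From the mean of the pair, the median of the 395 other regions was 2.66. The 3 nearest were chr7:65654535-65654906 (0.710), chr11:48666971-48667343 (0.744) and chr11:106874030-106874402 (0.761). Their nearest protein-coding genes were Atp10a (258666 bp away), Trim7 (1260 bp) and Kpna2 (13175 bp), in this order. The likeness of the copies to each other is raised by the bases they share. Mean RPB2 coverage at these 3 regions was 9.86, 14.6 and 32.5, and Pol III coverage 122.8, 177.5 and 168.6.

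No gene for a protein of the particle could be set beside its RNA. None of 8 genes looked for (Srp9, Srp14, Srp19, Srp54a, Srp54b, Srp54c, Srp68 and Srp72), which encode its protein subunits, lay within 5000 bp of any listed stretch. The same held for the liver genes Alb, Apoa1 and Ttr, so the tissue could not be checked against markers in these files.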

How the data were processed

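ChIP-seq coverage of 12 mouse liver libraries in 6 groups of 2 was used. The authors deposited, per sample, coverage signal in reads per base over the same 532 stretches; the build is mm9 per the submitters' processing notes. The aligner, the filters and the treatment of reads with several matches were checked in the labels and headers and are each not given in the sources used here. A further stretch, present in 5 files only, was left out. Deposited starts were read as 1-based with exclusive ends, the reading under which no fractional base lay outside repeated windows at either gene.

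The members and lists were chosen with earlier results of these data known. The genes described are Rn7s1, Rn7s2, their neighbours, other Pol III genes that are neither tRNA nor 5S rRNA genes, genes of the particle's proteins, and the 3 regions nearest to the pair in log2 coverage. Merging stretches separated by less than 1000 bp gave 442 regions. Mean coverage was scaled by the file total, and a pseudocount (the 5th percentile of nonzero values) was added. A filter removed regions whose mean coverage was below the 0.1 quantile; 397 remained, both members among them. All groups were fitted with limma 3.58.1 (R 4.3.3) with a mean-variance trend, 6 residual degrees of freedom and a threshold of 0.05 on the Benjamini-Hochberg adjusted p. Differences are on the log2(value + pseudocount) scale, which understates those of low regions. Single ratios were tested by exact permutation over libraries (scipy 1.17.1). The scripts were tested on simulated data. Alternatives varied scaling, pseudocount, filter, bases, merging, libraries and replicate number. The p-values measure only the spread between libraries, which may be technical, and take the libraries as independent. The sequence of the transcribed part is not reported here.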

Additional observations from a re-analysis of the deposited data

How the results depend on the processing

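With 2 libraries a group, single libraries weigh heavily, the input and H3K36-titled values rest on few reads, and the direction of both histone-titled groups against input follows the scaling; the cause was not tested. Unless said otherwise values are limma log2 differences. Of the alternatives run for the comparisons by limma, 142 kept direction and side of the threshold. Direction reversed in 17, some of which also passed the threshold anew. With direction kept, 10 passed the threshold anew and 5 lost it.

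H3K4-titled against input at Rn7s1 and Rn7s2 was 5.53 and 5.19 with anchored scaling, 1.80 and 1.45 with median-of-ratios scaling and 2.45 and 2.11 with coverage as deposited. H3K36-titled against input at Rn7s1 was 0.14 with anchored scaling; at Rn7s1 and Rn7s2 it was 0.70 and 0.46 with median-of-ratios scaling and -1.09 and -1.23 with coverage as deposited (adjusted p = 0.0376 and 0.0101). RPC1 against RPC4 was -0.27 and -0.28 with coverage as deposited. From the outer 150 bp alone, Rn7s1 gave 0.94 for Pol III (adjusted p = 0.376), 2.40 for RPB2 (0.104) and -0.64 for H3K4-titled, and Rn7s2 gave -4.67 for H3K36-titled (0.000685). With anchored scaling added, a choice made after seeing the data, H3K4-titled was 4.92 and 4.28 and H3K36-titled at Rn7s2 was -1.81 (adjusted p = 0.00575). A 150 bp window at the Pol III summit gave 2.53 for RPB2 at Rn7s1 (adjusted p = 0.0525), -1.44 for H3K4-titled at Rn7s2, 1.11 for H3K36-titled at Rn7s1, and turned the log2 ratio of the copies in Pol III against input to -0.38. In the 100 bp downstream that ratio against RPB2 was -0.90.

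Leaving out each library gave, at Rn7s1 and Rn7s2, 0.70 to 2.19 and 1.81 to 2.03 for Pol III, 1.48 to 2.97 and 1.91 to 2.30 for RPB2, -0.71 to 0.77 and -0.50 to -0.15 for H3K4-titled, -0.93 to 0.56 and -0.69 to -0.16 for H3K36-titled, and 0.22 to 0.59 and 0.21 to 0.58 for RPC1 against RPC4. The log2 ratio of the copies in Pol III was 0.35 to 0.41, and its difference ran from 0.47 to 0.72 against RPB2, 0.79 to 0.88 against H3K4-titled, 0.53 to 0.91 against H3K36-titled and -0.18 to 1.12 against input. A lone library was assumed to vary like the other groups.

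No pairing of libraries by replicate number was seen: over 15 pairs of groups the correlation of deviations ran from -0.12 to 0.0983, and 0 exceeded 0.1. Since input and the H3K36-titled libraries held few reads, this cannot show whether libraries with the same number share mice. A replicate block left the differences at 1.45 and 1.92 for Pol III and 2.23 and 2.11 for RPB2 and changed no call; with anchored scaling it gave 5.53 and 5.19 for H3K4-titled and 0.14 for H3K36-titled at Rn7s1, as without the block.

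Regions called for H3K36-titled against input were 92, but 51 with anchored, 61 with median-of-ratios and 288 with no scaling, 154 at the summit window, 13 with only those libraries, and 56 to 159 without a library. For RPB2 they were 157, but 49 with median-of-ratios scaling, 62 at the summit window and 63 to 81 without RPB2 replicate 1 or input replicate 1. Called higher and lower were 84 and 215 for Pol III, 26 and 131 for RPB2, 44 and 243 for H3K4-titled and 17 and 75 for H3K36-titled. With median-of-ratios scaling they were 113 and 139, 40 and 9, 93 and 131, and 32 and 29, and as deposited 289 and 1, 147 and 2, 144 and 123, and 12 and 276.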
